A study of Mus musculus with 3 samples.

Results

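The Rab genes were taken from the GENCODE M21 annotation as protein-coding mouse genes whose symbol is Rab, a number and at most a short letter or digit suffix, which gave 61 of 21951 protein-coding genes. Of these, 59 encode Rab GTPases. The other 2 only share the pattern of the name: Rab3ip encodes an exchange factor for Rab proteins and Rab5if encodes a protein that is not a GTPase. The measurements were full-length transcript models (isoforms) from PacBio Iso-Seq, in which a whole polyadenylated cDNA is read as 1 molecule. There were 3 libraries of CD4+ T cells from male wild-type C57BL/6N mice aged 6 to 10 weeks, with 1 library per condition. In the division experiment of the paper, all cells were enriched as naive cells from spleen and lymph nodes with an EasySep kit. They were labelled with CellTrace Violet, a dye diluted at each division. The naive cells of that experiment were unstimulated and taken on day 0. For the other libraries the cells were activated for 48 h with anti-CD3 and anti-CD28 and then sorted into cells with 0 divisions (activated undivided) and cells with 2 divisions. No genetic change was made in any library. The naive cells of the division experiment were not sorted by flow cytometry. The paper also describes sorted naive cells, and it does not state which preparation gave the naive library used here. How many animals went into each library is not given in the sources used here.

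Rab proteins are small GTPases that mark the membranes of a cell. In the GTP-bound state they recruit effectors that form, move, tether and fuse vesicles, and a lipid tail on cysteines at the C-terminus holds them on the membrane. Exchange factors load GTP and GTPase-activating proteins end the signal. In T cells, Rab proteins are known for recycling the antigen receptor to the contact site, for lysosome and autophagosome traffic, and for secretory granules.

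The deposited models list each isoform once, with its exons and no read count. A gene can therefore be described as seen or not seen, and by its number of isoforms, but not by a level. The depth of each library is unknown, and with 1 library per condition no difference below has a replicate check or a test. The libraries held 10527, 12602 and 11109 isoforms in the naive, undivided and 2-division cells, and 33, 39 and 31 of them belonged to Rab genes, or 3.13, 3.09 and 2.79 per 1000. All 14 markers of CD4+ T cells chosen as a check had an isoform in naive cells and 12 of 14 had one in either activated library. B cell markers also had isoforms, 9 of 16 in naive cells and 2 of 16 in either activated library, with 25, 6 and 5 isoforms in all. The immunoglobulin gene Ighm held the most (12, 5 and 4 isoforms), and Cd79a and Pax5 had none. Myeloid markers had isoforms in 4, 1 and 1 of 14 cases and markers of CD8+ T and NK cells in 4, 2 and 2 of 10. By the names of the deposited data, the activated libraries shared 1 sequencing cell that the naive library was not on, so activation and sequencing cell cannot be told apart.

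Of the 61 Rab genes, 26 had an isoform in at least 1 library (42.6%, exact 95% interval 30 to 55.9%, counting error only). Over all protein-coding genes the share was 30.7%. Rab genes were seen in 17, 20 and 17 of 61 cases in the naive, undivided and 2-division cells, which is 27.9% (17.1 to 40.8%), 32.8% (21.3 to 46%) and 27.9% (17.1 to 40.8%). The shares over all protein-coding genes, 21%, 24.9% and 23%, lay inside these intervals. Of the 26 genes seen, 12 were in all 3 libraries (46.2%, against 49.7% of all genes seen). These were Rab1a, Rab1b, Rab5b, Rab5c, Rab7, Rab8a, Rab8b, Rab9, Rab11b, Rab14, Rab18 and Rab27a.

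**Figure D1:**
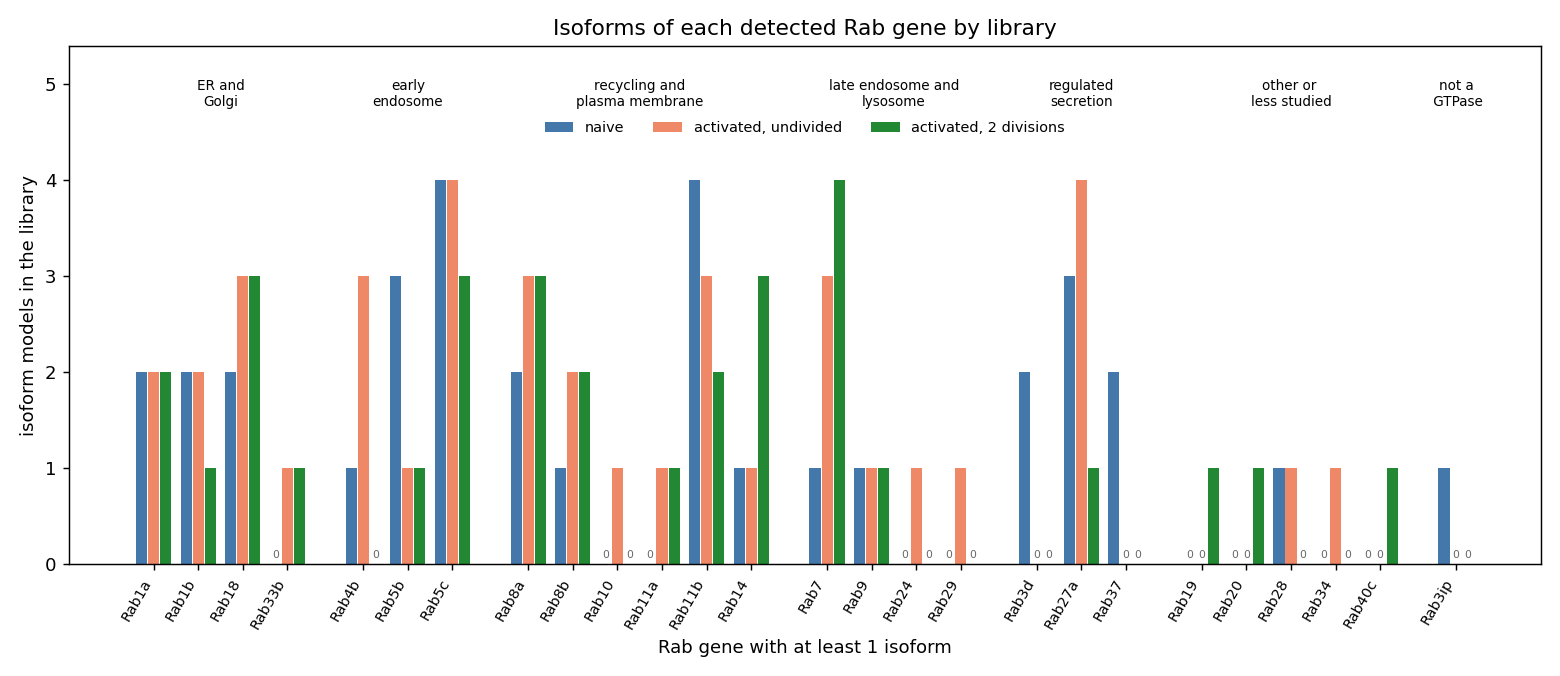
Number of isoform models (vertical axis) of each of the 26 Rab genes seen (horizontal axis, grouped by known place of action) in the naive (blue), undivided (orange) and 2-division (green) library. No Rab gene had more than 4 isoforms in a library, and 14 of the 26 genes were missing from 1 or 2 libraries, marked 0.

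Among the 11 genes of the endoplasmic reticulum and Golgi, 4 were seen. Rab1a and its paralogue Rab1b, which act between these compartments, had 2, 2 and 2 and 2, 2 and 1 isoforms in the naive, undivided and 2-division library. Rab18, known from lipid droplets and the endoplasmic reticulum, had 2, 3 and 3. Rab33b, a Golgi Rab that binds the autophagy protein Atg16L1, had no naive isoform and 1 in each activated library. Rab1a was thus at the same count in all 3 libraries, and the others differed by 1 isoform between at least 1 pair of libraries.

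Among the 8 early endosome genes, 3 were seen. Rab5c had the most isoforms of any member, 4, 4 and 3, and its paralogue Rab5b had 3, 1 and 1; both belong to the group that drives fusion of early endosomes. Rab4b, of the fast recycling route, had 1 and 3 isoforms in naive and undivided cells and none after 2 divisions. The remaining paralogue, Rab5a, had no isoform in any library.

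Of 11 genes of recycling and of transport to the plasma membrane, 6 were seen, 4 in naive, 6 in undivided and 5 in 2-division cells. Rab11b had 4, 3 and 2 isoforms. Its paralogue Rab11a, the classical marker of recycling endosomes, was missing from naive cells and had 1 isoform per activated library. Rab8a had 2, 3 and 3, Rab8b 1, 2 and 2, and Rab14, which acts between Golgi and endosomes, 1, 1 and 3. Rab10 was seen only as 1 isoform in undivided cells. For Rab11b the count was lower in the activated libraries, and for Rab8a, Rab8b and Rab11a it was higher in both of them. Each library held 1 Rab8b isoform with a complete coding sequence, so the added Rab8b isoforms were incomplete.

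Of 9 late endosome and lysosome genes, 4 were seen. Rab7, which directs late endosomes to the lysosome, had 1, 3 and 4 isoforms, and Rab9, of the route from late endosomes to the Golgi, had 1 in each library. Rab24 and Rab29 were each seen once, in undivided cells. Of 9 genes of regulated secretion, 3 were seen. Rab27a, needed for the release of lytic granules, had 3, 4 and 1 isoforms. Rab3d and Rab37, secretory granule Rabs, were found in the naive library alone, each with 2 isoforms.

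Among 11 less studied genes, Rab28 had 1 isoform in each of the naive and undivided libraries, Rab34 had 1 in undivided cells, and Rab19, Rab20 and Rab40c had 1 each in 2-division cells. Rab3ip had 1 naive isoform, and Rab5if had none. No isoform was found of the remaining 34: Rab2a, Rab2b, Rab3a, Rab3b, Rab3c, Rab4a, Rab5a, Rab6a, Rab6b, Rab7b, Rab9b, Rab12, Rab13, Rab15, Rab17, Rab21, Rab22a, Rab23, Rab25, Rab26, Rab27b, Rab30, Rab31, Rab32, Rab33a, Rab35, Rab36, Rab38, Rab39, Rab39b, Rab40b, Rab42, Rab43 and Rab44. The alternative exon pair of Rab6a could therefore not be examined. The 35 unseen members had a median annotated transcript length of 2971 nt (761 to 9456) and the 26 seen ones 2273 nt (1168 to 6515). Over all protein-coding genes the order was the other way, with 2463 nt for unseen and 2802 nt for seen genes. A gene without an isoform here may still be transcribed, since the libraries report only what was read and clustered.

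Between naive and undivided cells, 3 of the 23 Rab genes seen in either were seen only in the naive library (13%, against 13.2% of all protein-coding genes) and 6 only in undivided cells (26.1%, against 26.6%). Between naive and 2-division cells, 5 of 22 were seen only in naive cells (22.7%, against 16.9%) and 5 only after 2 divisions (22.7%, against 24.1%). Between the activated libraries, 6 of 23 were seen only in undivided cells (26.1%, against 17.9%) and 3 only after 2 divisions (13%, against 11.2%). Each background value lay inside the exact interval of the Rab share, of which the widest ran from 10.2 to 48.4%. Rab11a and Rab33b were the members absent from naive cells and present in both activated libraries. Rab3d, Rab37 and Rab3ip were the reverse. Markers of B cells, of myeloid cells and of CD8+ T and NK cells were also more often seen in the naive library, as given above. The part of such cells in the naive isoforms of Rab3d, Rab37 and Rab3ip was not tested.

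**Figure D2:**
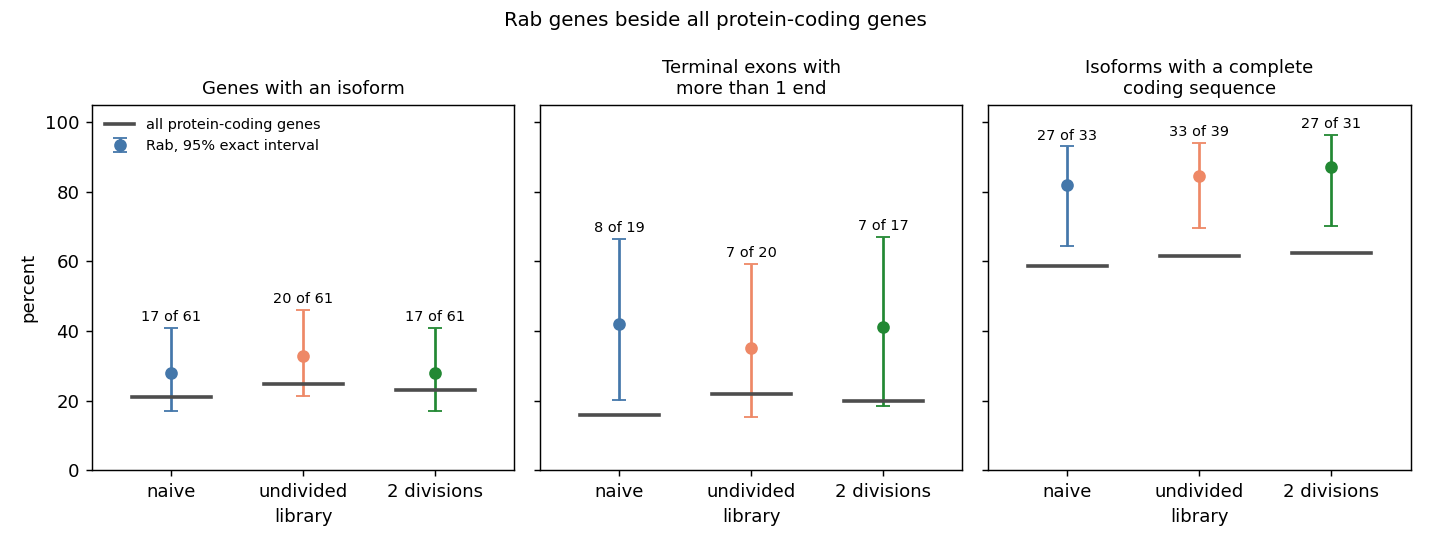
Percent (vertical axis) of Rab genes with an isoform, of Rab terminal exons with more than 1 end and of Rab isoforms with a complete coding sequence in each library, with exact 95% intervals, beside the value over all protein-coding genes (dark bars). Of the 3 measures, only the share with a complete coding sequence lay above the dark bar with its whole interval in every library. That interval treats isoforms of the same gene as independent, and the libraries share many of the genes.

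The 3′ ends of Rab isoforms were compared within terminal exons, that is, among isoforms with the same last splice acceptor. Ends within 24 nt of the next were counted as 1. Pooled over the libraries there were 29 Rab terminal exons with 49 ends, and 11 of the exons, in 11 genes, had 2 or more ends. Ends were counted per terminal exon, so the end of Rab1b and of Rab14 that was reached from 2 acceptors is counted for each of them. Of the 49 ends, 16 were found with the same acceptor in all 3 libraries, 10 in 2 and 23 in 1. Within single libraries, 8 of 19, 7 of 20 and 7 of 17 Rab terminal exons had 2 or more ends, which is 42.1% (20.3 to 66.5%), 35% (15.4 to 59.2%) and 41.2% (18.4 to 67.1%). Over all protein-coding genes the shares were 16%, 21.8% and 19.8%. The naive background lay below the Rab interval and the other 2 lay inside it. Without ends before an A-rich stretch of genome, the naive count was 5 of 16, and its interval (11 to 58.7%) held the background of 13.2% counted in the same way. The shares of the activated libraries were then 41.2% (18.4 to 67.1%) and 50% (23 to 77%), against 18% and 16.7%.

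The last 30 nt before the ends of 5 of these genes are shown, since the choice between their ends sets the length of the 3′ untranslated region (UTR). For Rab27a only the first and last of 4 ends are shown. All are GRCm38 sequence on the strand of the gene, and capitals mark AATAAA or ATTAAA, the main poly(A) signals, which direct cleavage of the transcript a short way downstream.
Rab1a proximal, chr11:20225425-20225454: atgtttAATAAAtattgtacttattggaag
Rab1a distal, chr11:20226825-20226854: cacAATAAAatcatagtttactttgtatta
Rab11a proximal, chr9:64716605-64716634: agtttAATAAActgaatgtttgaagttctc
Rab11a distal, chr9:64715306-64715335: atcctcatcctAATAAAcagttacaggggc
Rab7 proximal, chr6:87999806-87999835: aaccaATTAAAatgtataaattagtgtaag
Rab7 middle, chr6:87999481-87999510: tcaagaATTAAAattctcattttctccctt
Rab7 distal, chr6:87999123-87999152: aaagagacgaacgtgatgccAATAAAattt
Rab8a proximal, chr8:72180809-72180838: taagatgatttttttatttttccagattcc
Rab8a middle, chr8:72181245-72181274: cttttttgaaATTAAAaccaacgtaccagc
Rab8a distal, chr8:72181331-72181360: gcactcagaaaattagATTAAAgtgcattt
Rab27a proximal, chr9:73096415-73096444: aATTAAAcggcgtgtttatttgctatctgg
Rab27a distal, chr9:73097594-73097623: ataaaaaaaaatAATAAAagaggtccagta

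Each of the ends shown except the proximal one of Rab8a had a main signal in its last 50 nt. Of the Rab27a ends not shown, the one at a 3′ UTR of 2130 nt had ATTAAA. The one at 2031 nt, found in all 3 libraries, had no main signal. Such a signal was present at 57.6%, 59% and 64.5% of Rab isoform ends in the naive, undivided and 2-division library, against 66.3%, 68.5% and 68.8% of the ends of all protein-coding isoforms. Of the 49 pooled Rab ends, counted per terminal exon, 32 had a main signal. The 3 ends of Rab11b had neither AATAAA nor ATTAAA. Searches were on the strand of the gene only, and a match is a description, not proof of use.

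An oligo(dT) primer can also bind a genomic A-rich stretch inside a transcript, so ends followed by at least 12 A in the next 20 nt of genome were marked. They made up 24.2%, 15.4% and 19.4% of Rab isoform ends (8 of 33, 6 of 39 and 6 of 31), against 25.7%, 20.1% and 20.6% over all protein-coding isoforms. Among the 49 pooled Rab ends, 11 were of this kind, with the Rab14 end counted for each of its acceptors. They included the distal end of Rab7, which also lay 6 nt from an annotated end and had AATAAA, and the distal ends of Rab3d and Rab11b, which were 438 and 1026 nt from any annotated end.

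**Figure D3:**
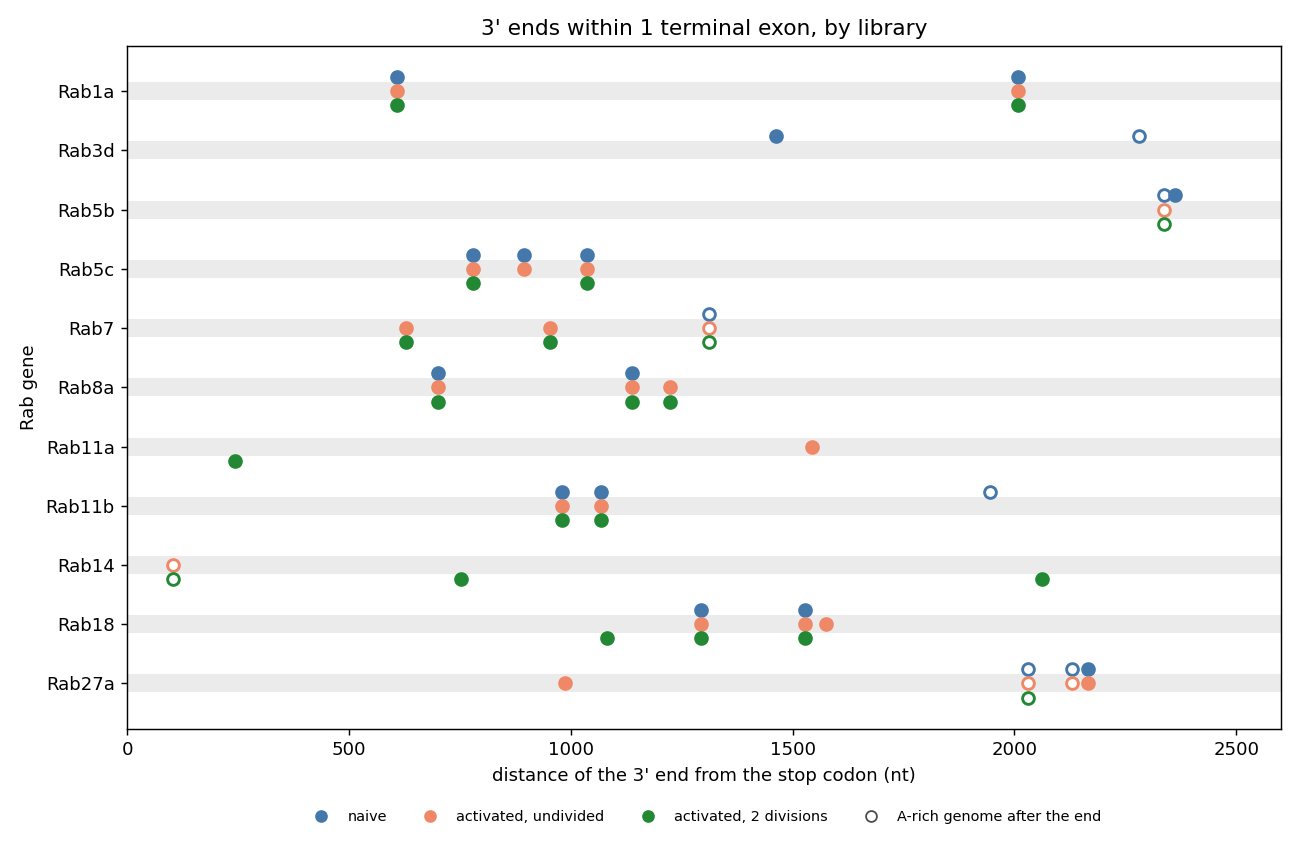
Distance in nt of each 3′ end from the stop codon (horizontal axis) for the 11 Rab genes with more than 1 end in a terminal exon (vertical axis), by library (colour). Hollow points have an A-rich stretch of genome after the end. Rab1a had the same 2 ends in all 3 libraries, and the 2 shorter ends of Rab7 were found only in the activated libraries.

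Rab1a (chr11:20201432-20226856) ended at a 3′ UTR of 609 to 610 nt and at one of 2009 to 2010 nt in each of the 3 libraries, with 1 isoform per end and library. Both ends had AATAAA, 23 to 27 nt before the end, and lay within 10 nt of an annotated end. The choice of ends of Rab1a thus did not separate the conditions at this resolution, although the share of reads at each end is not known.

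Rab7 (chr6:87999106-88045270) had a single naive isoform with a 3′ UTR of 1312 nt. The undivided library held this form and 2 shorter ones, of 954 and 629 nt, and the 2-division library held the same 3 ends, at 1312, 952 and 626 nt. The mean terminal exon was 1408 nt in naive, 1061 nt in undivided and 1146 nt in 2-division cells, so both activated libraries were called shorter, with differences of -347 and -262 nt. In the 2-division mean the 1312 nt end counts 2 times, since 1 of its 2 isoforms was a model that began past the start codon. The 2 activated libraries held the same 3 ends, so their means do not differ by choice of end. The longest terminal exon was 1408 nt in all 3. Without ends before an A-rich stretch, no naive isoform of Rab7 was left and no comparison could be made.

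Rab8a (chr8:72161200-72183904) had ends at 3′ UTRs of 701 to 708 nt and of 1137 nt in all 3 libraries. A further end, at 1223 nt, was found in both activated libraries and not in the naive one. The mean terminal exon was 1016, 1114 and 1113 nt in the naive, undivided and 2-division library, and the difference of 98 nt fell just short of the 100 nt set for a call.

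Rab11a (chr9:64715299-64737758) had 1 isoform in each activated library, and these used different ends. The undivided form had a 3′ UTR of 1543 nt and the 2-division form one of 244 nt, with terminal exons of 1683 and 384 nt. Both ends had AATAAA, neither was followed by an A-rich stretch, and they lay 7 and 0 nt from annotated ends. This difference, -1299 nt from undivided to 2-division cells, was the widest among the mean terminal exons of Rab genes and rests on 1 isoform on each side.

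Rab27a (chr9:73044854-73097629) ended at 3′ UTRs of 2031, 2130 and 2171 nt in naive cells. The undivided library held ends at 2031, 2130 and 2167 nt and also one at 988 nt, and the 2-division library held only the end at 2031 nt. The ends at 2031 and 2130 nt were followed by an A-rich stretch in all libraries where they occurred. The mean terminal exon was 2310, 2028 and 2230 nt, called shorter in undivided cells when set against naive cells (-282 nt) and longer after 2 divisions when set against undivided cells (202 nt). Without ends before an A-rich stretch the first difference was -594 nt, and no 2-division isoform was left for the second. With the longest terminal exon in place of the mean, the first difference was -4 nt and the second turned to -136 nt.

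Rab11b (chr17:33742484-33760530) had ends at 3′ UTRs of about 980 and 1069 nt in all 3 libraries, and 1 at 1944 nt in naive cells alone. Its mean terminal exon was 1412, 1185 and 1170 nt, called shorter in both activated libraries, with differences of -226 and -242 nt. Without the naive end at 1944 nt, which is followed by an A-rich stretch, the difference to 2-division cells was -16 nt and neither comparison was called.

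Rab14 (chr2:35180205-35201120) had the same end, 104 nt after the stop codon, in all 3 libraries, but in naive cells on an isoform that kept the last intron. This end is followed by an A-rich stretch, has no main signal and lies 3 nt from an annotated end. The 2-division library also held ends at 753 and 2063 nt, so its mean terminal exon was 1151 nt against 282 nt in undivided cells and was called longer, by 869 nt. Both added ends had a main signal and no A-rich stretch.

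Rab18 had ends at 3′ UTRs of about 1293 and 1527 nt in all 3 libraries, 1 at 1575 nt in undivided cells and 1 at 1082 nt in 2-division cells. Its mean terminal exon was 1586, 1641 and 1476 nt, and the last was called shorter than both others, with differences of -110 nt to naive and -165 nt to undivided cells. With the longest terminal exon in place of the mean these were -1 and -49 nt, and neither was called. Rab5c (chr11:100715009-100738215) had ends at about 780 and 1036 nt in all libraries and 1 at 875 to 895 nt in naive and undivided cells, with no call. The 2 naive ends of Rab5b (chr10:128677175-128696264) lay 25 nt apart, just beyond the limit for merging. Rab3d (chr9:21907491-21918192) had ends at 1462 and 2280 nt, both in naive cells.

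Over the family, 3 of 13 Rab terminal exons were called shorter and 0 longer in undivided cells when set against naive cells, against 13% and 5.67% of the terminal exons of all protein-coding genes. In 2-division cells 3 of 11 were shorter than in naive cells and 0 longer, against 13.5% and 4.79%. The genes were Rab7, Rab11b and Rab27a in the first comparison and Rab7, Rab11b and Rab18 in the second, and both use the same naive library. Between the activated libraries 2 of 14 were shorter after 2 divisions (Rab11a and Rab18) and 2 longer (Rab14 and Rab27a), against 8.41% and 6.95%. The exact intervals of these Rab shares, such as 5.04 to 53.8% for 3 of 13, held the background in each case. Without the ends before A-rich stretches, 1 of the first 3 calls (Rab27a) and 1 of the second 3 (Rab18) was left, and both calls of longer between the activated libraries lost all isoforms on 1 side, Rab14 in undivided and Rab27a in 2-division cells. With the longest terminal exon in place of the mean, only Rab11b was shorter in undivided than in naive cells. Rab11b and Rab27a (-140 nt) were then shorter in 2-division than in naive cells, without Rab7 and Rab18. Between the activated libraries Rab11a and Rab27a were shorter and Rab14 was longer, by 1959 nt.

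The stretch gained by the longer ends was searched for ATTTA, the core of AU-rich elements known to affect transcript stability, and for 7-nt matches to bases 2 to 8 of 4 miRNAs active in T cells. The mature sequences of 2 of these, from RefSeq (GRCm38.p6), are shown with the seed in capitals because Rab1a holds a match to each between its 2 ends.
mmu-miR-155-5p: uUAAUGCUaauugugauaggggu
mmu-miR-23a-3p: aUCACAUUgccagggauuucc

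Rab1a had 1 match to miR-155-5p (AGCATTA), 1 to miR-23a-3p (AATGTGA) and 2 ATTTA in the 1400 nt between its proximal and distal end, and none of them in the 610 nt common to both ends. Rab18 had 6 ATTTA in its 493 nt extension, Rab14 had 5 in 1959 nt, and Rab11a and Rab27a had 3 each in 1299 and 1183 nt. The added stretches of Rab3d, Rab5b, Rab7, Rab8a and Rab11b held no ATTTA. Together the extensions of the 11 Rab terminal exons held 2.08 ATTTA per 1000 nt, and those of 1733 terminal exons of all protein-coding genes held 2.04. The common stretches held 1.31 and 1.72. The 4 miRNAs had 3 matches in all in the Rab extensions, or 0.312 per 1000 nt, against 0.348 in the extensions of all protein-coding genes. Of these 2 were those of Rab1a and 1 was a match to miR-18a-5p (GCACCTT) in Rab8a. The common stretches of the Rab exons held 7 matches, or 0.705 per 1000 nt against 0.358, among them 4 to miR-17-5p (GCACTTT), 2 in Rab5b and 2 in Rab11b. No match to miR-17-5p lay in the Rab extensions. Only the sense strand was searched, and overlapping matches were counted.

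An isoform was counted as coding when its exons held the whole coding sequence of an annotated transcript of the gene, with the same introns. This was so for 27 of 33 naive, 33 of 39 undivided and 27 of 31 2-division Rab isoforms, which is 81.8% (64.5 to 93%), 84.6% (69.5 to 94.1%) and 87.1% (70.2 to 96.4%). Over all protein-coding genes the shares were 58.7%, 61.4% and 62.3%, below the Rab interval in each library. The intervals treat isoforms as independent, but these came from only 17, 20 and 17 genes. Of the genes, 12 recurred in all 3 libraries, so the libraries are not separate checks of this difference. Of the 87 complete Rab isoforms, 85 encoded the principal annotated protein. Of 101 Rab isoforms with more than 1 exon, 90 followed an annotated intron chain, and 2 of all 103 had an intron outside the annotation. A start within 100 nt of an annotated one was found for 90.3% of Rab isoforms (85.9% of all protein-coding isoforms), and an end within 24 nt of an annotated one for 56.3% (65.5%).

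The 16 isoforms without a complete coding sequence fell into 4 kinds. In 7 an annotated intron was kept, in 6 the model began past the start codon, 2 ended before the stop codon, and 1 was spliced in another way. Counting every isoform that kept an intron of the principal transcript, coding or not, there were 6 of 33 in naive, 3 of 39 in undivided and 1 of 31 in 2-division cells, or 18.2%, 7.69% and 3.23%. Over all protein-coding genes the shares were 16.1%, 10.4% and 9.44%, each inside the exact Rab interval.

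**Figure D4:**
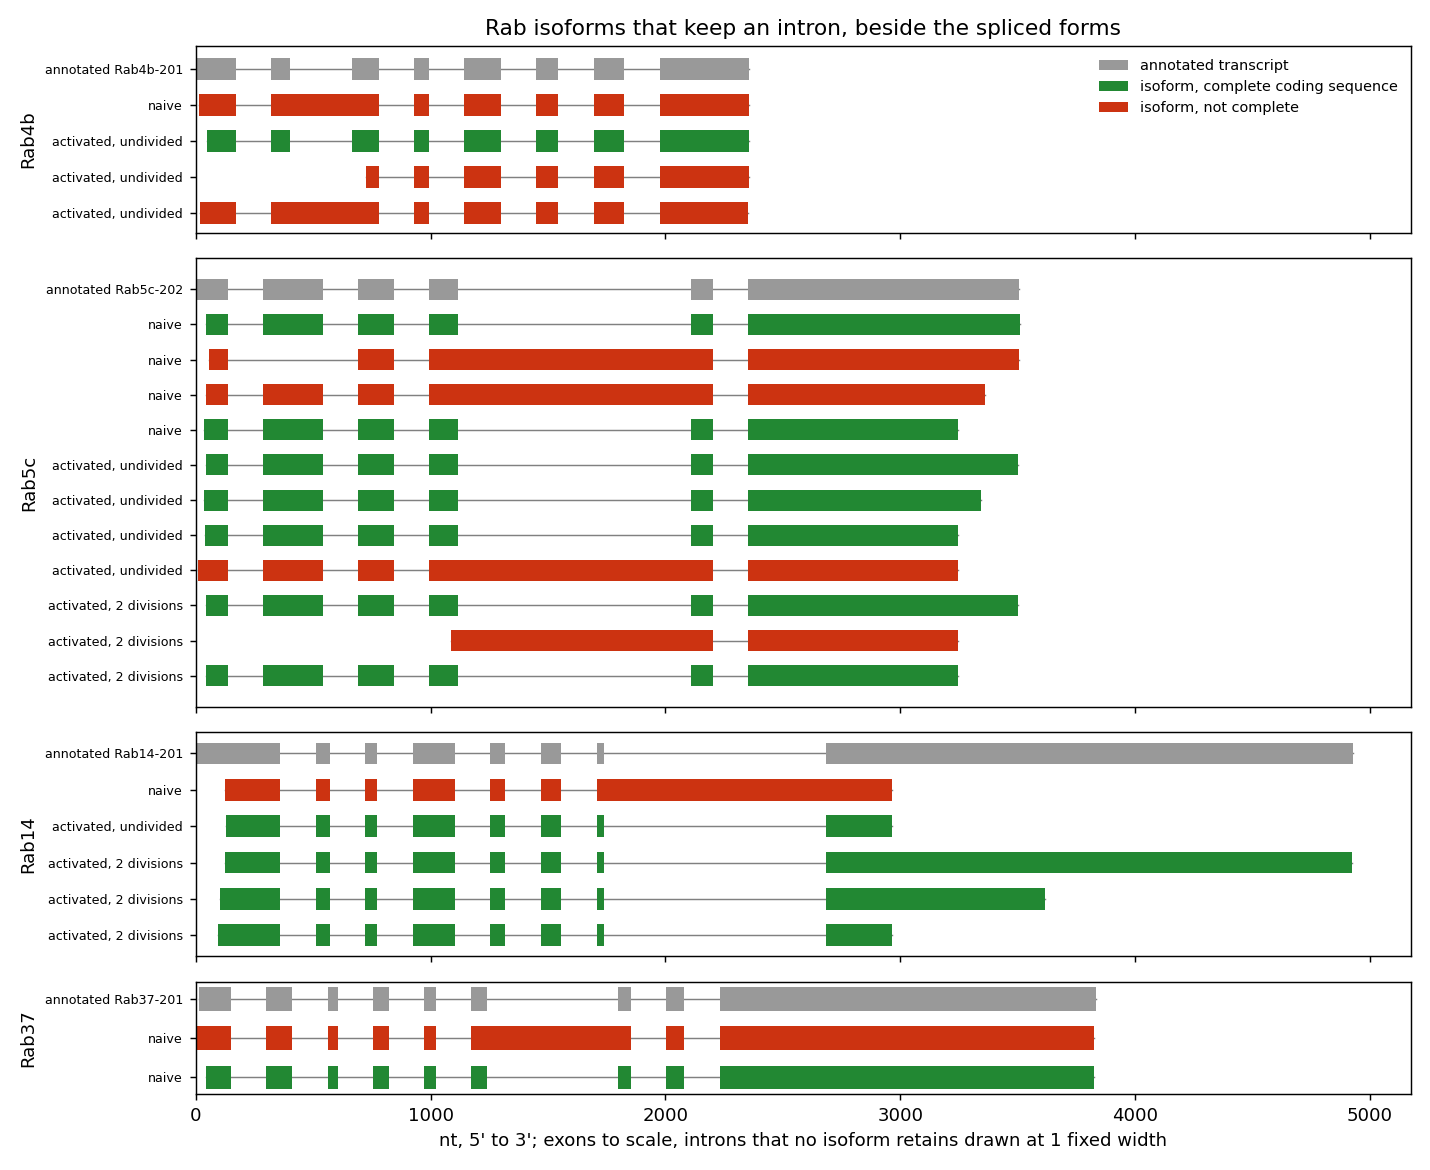
Exons of Rab4b, Rab5c, Rab14 and Rab37 isoforms, 1 row per isoform, beside the annotated transcript (grey). The horizontal axis is in nt with exons to scale, introns that no isoform kept are drawn at a fixed width, and isoforms with a complete coding sequence are green and the others red. Rab5c had an isoform with intron 4 kept in every library.

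Rab5c kept intron 4 of 5, of 990 nt (chr11:100716852-100717841), in 2 naive isoforms and in 1 isoform of each activated library. In 1 naive and the undivided isoform the frame from the annotated start ran 149 codons in place of 216 and stopped 1075 nt before the last exon junction. The other naive isoform also left out exon 2, which holds the start codon, through an unannotated junction. The 2-division isoform began inside the coding sequence. Each library also held at least 2 fully spliced Rab5c isoforms.

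Rab4b (chr7:27168424-27178896) kept intron 2 of 7, of 264 nt, in its single naive isoform and in 1 of 3 undivided ones, a chain that GENCODE lists as a retained intron. The frame ran 57 codons in place of 213 and stopped 747 nt before the last junction, a position that nonsense-mediated decay is known to recognise. The only complete Rab4b isoform was in undivided cells. Rab37 (chr11:115091431-115162236) kept intron 6 of 8, of 557 nt, in 1 of its 2 naive isoforms, with 154 codons in place of 223. The naive Rab14 isoform kept the last of 7 introns, of 945 nt, with 157 codons in place of 215. None of these shortened frames held the cysteine near the C-terminus to which the lipid tail is attached, while all had the phosphate-binding loop near the start.

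Alternative coding exons were found in Rab11b and in the naive Rab5c isoform without exon 2 described above. Rab1b instead kept an intron in its coding sequence. A naive Rab11b isoform followed the annotated chain Rab11b-203, in which the opening stretch of exon 2 is left out. Its coding change was -75 nt, with 193 residues in place of 218 and no match to the phosphate-binding loop. An undivided isoform joined exon 2 to a longer first exon, with the junctions of the annotated Rab11b-206, and its frame had 180 more coding nt and 278 codons. The remaining 7 Rab11b isoforms encoded the principal 218-residue protein. A naive Rab1b isoform kept the last intron, of 94 nt, as in the annotated Rab1b-202, and encoded 189 residues in place of 201, with a cysteine still among the last 5. In Rab29 the single undivided isoform kept intron 1, of 108 nt, before the start codon and encoded the principal protein. No alternative coding exon was found in 2-division cells, which had 31 Rab isoforms.

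Rab5b and Rab8b each had an isoform that ended inside an intron. The naive Rab5b form followed the annotated Rab5b-202, with 168 codons in place of 215, and the 2-division Rab8b form had 152 in place of 207. Both ends were followed by an A-rich stretch. Rab8b (chr9:66843664-66919687) otherwise had 1 complete isoform of 4692 nt in every library, the longest Rab isoform, with a 3′ UTR of 4047 nt. A single-exon Rab8b model of 2195 nt in undivided cells and a single-exon Rab40c model of 1154 nt in 2-division cells shared no splice site with the gene and were assigned by exon overlap. This Rab40c model was the only trace of that gene.

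As a check of the gene set, 57 of the 59 GTPase members encode the phosphate-binding loop in the principal protein, searched by its classical Walker A pattern. The 2 without a match were Rab40b and Rab40c. All 59 have a cysteine in the last 5 residues, and Rab3ip and Rab5if have neither feature.

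Partner genes of the Rab proteins were counted against the 21%, 24.9% and 23% of all protein-coding genes seen in the naive, undivided and 2-division library. Of 7 genes for Rab prenylation and recycling, 6, 5 and 6 were seen in these libraries (85.7%, 71.4% and 85.7%). The transferase subunits Rabggta and Rabggtb, which attach the lipid, had 7, 3 and 3 and 1, 4 and 4 isoforms. Of 37 exchange factor genes, 18, 14 and 11 were seen (48.6%, 37.8% and 29.7%). They were led by Dennd2d with 7, 3 and 3 isoforms, followed by Dennd1c with 3, 2 and 1 and Rabif with 2, 3 and 1. Of 37 genes for GTPase-activating proteins, 8, 15 and 11 were seen (21.6%, 40.5% and 29.7%). Tbc1d10c had 5, 4 and 3 isoforms, Tbc1d15 had 4, 4 and 2, and Tbc1d1 and Tbc1d17 followed with 2, 3 and 2 and 3, 2 and 2. The naive share of the activating proteins was near the background, and no difference between the libraries or lists was tested.

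Of 46 effector genes, 15, 18 and 19 were seen (32.6%, 39.1% and 41.3%, against the same background). Unc13d, which primes lytic granules and binds Rab27a, had 2, 4 and 3 isoforms, the phosphatase gene Inpp5b had 2, 4 and 2, and the Rab5 effector gene Appl1 had 3, 2 and 2.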

How the data were processed

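The deposited values were not counts but exon coordinates of isoforms (unit: other), 1 set of models per library. The authors made consensus reads, kept those with a poly(A) tail, clustered them, aligned them with pbmm2 and collapsed them into isoforms; the labels name Subread, minimap2, mm10 and GRCm38. Coordinates are GRCm38: 99.1% of 68209 introns had standard splice dinucleotides there and 0 isoforms passed a chromosome end.

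With Python 3.11.15 and pysam 0.24.0, each isoform was assigned to the GENCODE M21 gene with most shared splice sites on its strand, failing that by exon overlap. In isoforms of 400 genes simulated from annotated transcripts, all 400 were assigned to their gene. They carried splice sites of the same annotation, so this checks only the code. Single-exon models were not simulated. Of simulated terminal exons, 200 of 200 cut by more than the 100 nt limit were called, and 0 of 200 cut well below it were. Both results follow from the limit itself and check only that the code applies it. They give no error rate for the real calls, which compare means over isoform sets that can differ in number. Intervals are exact Clopper-Pearson at 95% (scipy 1.17.1), for counting error only. Means of terminal exons weigh isoforms equally, since read numbers are not in the models. A terminal exon in both libraries was called when its means differed by over 100 nt.

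Named with values were the members with most isoforms, those seen only in naive or in both activated libraries, and those with several ends, a call or alternative coding exons. For each list of partner genes, those with most isoforms were named, except 1 gene that is not reported here. The members and lists were chosen with earlier results of these data known. Alternatives were single splice-site support, A-rich ends left out, other merging and calling limits, intron chains and basic transcripts.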

Additional observations from a re-analysis of the deposited data

How the results depend on the processing

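No paired analysis was possible because each condition had 1 library and no replicate numbers. Of 84 alternative values for the counts and shares, 71 stayed within 1.5 times the count or inside the interval of the share. These held every value for 3′ ends, terminal exons with several ends and complete coding sequences. Not all of the 84 could change. Required splice-site support removed only single-exon models, which the terminal exon values never held. The naive share of terminal exons with several ends, 42.1%, counts as unchanged at 31.2% without A-rich ends. The interval of that lower share held the background of 13.2%. With at least 2 isoforms required, 10, 10 and 8 Rab genes were seen in the naive, undivided and 2-division library. Counted as distinct intron chains, the 2-division library had 20 Rab isoforms. Terminal exons shorter in undivided than in naive cells numbered 1 without A-rich ends and 1 by the longest exon, and 2 were longer at a limit of 50 nt. In 2-division against naive cells 1 was shorter without A-rich ends, 5 were shorter at 50 nt and 1 was longer at 50 nt. Between the activated libraries 1 was shorter at 200 nt, and 0 without A-rich ends and 1 by the longest exon were longer. Rab27a turned from 202 nt longer to -136 nt by the longest exon, because the longest undivided end is absent after 2 divisions. Leaving out the 2 genes that are not GTPases, an alternative chosen after seeing the data, changed no count by over 1.5 times. Leaving out replicates was not possible. The unknown depth limits each absence.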

Other observations

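The Arf, Arl and Sar GTPases, the other large group of small GTPases of membrane traffic, were seen in 11, 12 and 14 of 29 cases in the naive, undivided and 2-division library (37.9%, 41.4% and 48.3%, against 21%, 24.9% and 23% of all protein-coding genes). Arf1, which recruits coats at the Golgi, had 4, 5 and 4 isoforms. Sar1a, which starts the coat that leaves the endoplasmic reticulum, had 2, 6 and 4. Arl8b, which moves lysosomes along microtubules, had 0, 2 and 2, and Arfrp1, of the Golgi, had 1, 1 and 4. Arl5c went the other way, with 5, 2 and 1. These counts have no replicate check.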
